A study of Mus musculus with 14 samples.

Results

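Aminoacyl-tRNA synthetases were followed across the estrous cycle of the mouse uterus by RNA sequencing. The 36 genes were the rows of the expression table whose symbol has the form of a synthetase (a letter for the amino acid followed by ars or ars2, with Eprs, Farsa and Farsb), out of 31274 symbols. Lars2 was left out, since its signal follows ribosomal RNA. The family was split into 20 genes of cytosolic enzymes and 16 genes of mitochondrial enzymes. Whole uteri were taken at 2 months of age from FVB/N mice that were intact and had no treatment. The 4 groups were mice that the labels give as conditionally deleted for HIF2A (HIF2A cKO) at estrus (3 libraries) and at diestrus (4 libraries), and wild-type (WT) mice at estrus (3 libraries) and at diestrus (4 libraries). Epas1 encodes HIF2A, a transcription factor that low oxygen stabilises. The labels name neither the Cre line nor the deleted exons, and they do not say whether the libraries of a group came from separate animals, so p-values describe the spread between libraries, which may be technical.

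An aminoacyl-tRNA synthetase attaches an amino acid to the tRNA that reads its codon, the step that sets the genetic code before the ribosome. Cytosolic and mitochondrial translation use separate enzymes for most amino acids, all encoded in the nucleus. Part of the cytosolic enzymes sit together in the multi-synthetase complex. When amino acids run short or the endoplasmic reticulum is stressed, the transcription factor ATF4 raises many cytosolic synthetase genes in mammalian cells. In the rodent uterus, ovarian estrogen is known to stimulate RNA and protein synthesis. Estrus follows the preovulatory estrogen rise, and in diestrus progesterone dominates.

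Values were FPKM, fragments scaled to transcript length and to the fragments of the library, so levels of different genes are per length. The read number of the libraries was unknown. Among 10 of the 14 libraries the steps between low values put the relative depth at 1.00 to 1.89, and libraries of the same group correlated across genes with r between 0.956 and 0.994 on the log2 scale. Epas1 was compared between the genotype labels, but gene-level FPKM cannot tell whether exons were deleted, so the genotype could not be checked. Epas1 read 45.7, 39.9 and 38.0 FPKM in HIF2A cKO estrus libraries, against 34.2, 31.2 and 33.3 FPKM in WT estrus libraries. At diestrus it read 37.3, 35.1, 45.4 and 40.1 FPKM in HIF2A cKO libraries, against 31.9, 32.7, 43.5 and 31.2 FPKM in WT libraries. The HIF2A cKO label thus did not go with less Epas1 mRNA, and every direction between genotypes rests on the labels. These libraries are called labelled cKO hereafter. Labelled cKO diestrus replicate 4 and labelled cKO estrus replicate 1 had the highest 45S ribosomal RNA signal (Rn45s), at 1890 and 819 FPKM. Results were read with and without these 2 libraries. Lars2 stood at 438 FPKM in the first of them and between 120.1 and 232 FPKM in the other 13 libraries.

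Promoter windows from RefSeq (GRCm38.p6), 250 bases before to 50 bases after the annotated start, were matched by symbol for 26 of the 36 genes. The C/EBP-ATF response element, the site that ATF4 is known to bind with C/EBP partners, was searched as TGATGNAA on both strands. It was present in 5 of the 13 matched cytosolic genes and in 0 of the 13 matched mitochondrial genes, against 4.51% of all genes with a window. The windows of all 5 genes that hold the element are shown. Aars encodes the alanyl-, Gars the glycyl-, Iars the isoleucyl-, Tars the threonyl- and Yars the tyrosyl-tRNA synthetase. Each window reads 5′ to 3′ on the strand of the gene, and capitals mark the element.
Aars, chr8:111033592-111033891, plus strand: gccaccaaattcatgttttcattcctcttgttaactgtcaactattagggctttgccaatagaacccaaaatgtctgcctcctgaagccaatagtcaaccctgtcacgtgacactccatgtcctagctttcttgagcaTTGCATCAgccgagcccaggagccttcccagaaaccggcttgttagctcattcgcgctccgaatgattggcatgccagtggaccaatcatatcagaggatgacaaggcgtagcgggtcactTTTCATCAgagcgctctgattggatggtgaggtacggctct
Gars, chr6:55037751-55038050, plus strand: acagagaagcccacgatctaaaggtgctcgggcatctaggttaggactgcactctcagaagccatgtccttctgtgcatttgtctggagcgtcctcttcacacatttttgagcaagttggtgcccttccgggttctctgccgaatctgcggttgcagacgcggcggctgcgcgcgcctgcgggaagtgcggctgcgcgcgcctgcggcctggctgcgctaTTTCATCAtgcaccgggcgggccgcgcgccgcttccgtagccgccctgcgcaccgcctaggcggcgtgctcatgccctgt
Iars, chr13:49681880-49682179, plus strand: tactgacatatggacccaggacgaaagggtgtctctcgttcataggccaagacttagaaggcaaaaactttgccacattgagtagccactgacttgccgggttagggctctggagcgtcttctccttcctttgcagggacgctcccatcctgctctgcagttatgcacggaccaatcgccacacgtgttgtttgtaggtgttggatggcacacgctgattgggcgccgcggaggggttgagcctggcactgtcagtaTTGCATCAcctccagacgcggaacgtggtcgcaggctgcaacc
Tars, chr15:11399609-11399908, minus strand: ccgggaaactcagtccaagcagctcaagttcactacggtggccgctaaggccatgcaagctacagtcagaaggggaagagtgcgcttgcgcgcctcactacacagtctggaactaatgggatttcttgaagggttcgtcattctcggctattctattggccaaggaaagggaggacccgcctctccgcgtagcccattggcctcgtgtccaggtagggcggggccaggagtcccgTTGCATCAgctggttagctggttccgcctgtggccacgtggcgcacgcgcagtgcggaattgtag
Yars, chr4:129189653-129189952, plus strand: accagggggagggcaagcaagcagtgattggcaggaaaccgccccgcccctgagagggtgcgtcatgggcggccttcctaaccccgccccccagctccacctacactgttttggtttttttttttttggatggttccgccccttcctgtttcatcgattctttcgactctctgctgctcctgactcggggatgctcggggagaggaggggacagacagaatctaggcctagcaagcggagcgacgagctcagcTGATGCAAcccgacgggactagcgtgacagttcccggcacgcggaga
Aars held the element 2 times and the other 4 genes once each. The E-box CACGTG was in 5 of the 26 matched genes, against 8.09% of all genes. The hypoxia response core ACGTG, which every CACGTG contains, was in 10, against 21.8%. The interferon-gamma activated site TTCNNNGAA was in 3 (Aars, Kars and Nars2), against 9.55%, and the palindromic estrogen response element in 0, against 0.074%. A match describes letters in this window, and no factor binding was measured.

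All 36 genes passed the filter on low values (at least 1 FPKM in at least 3 libraries), and the lowest single value was 2.50 FPKM (Mars2). Summed over the 20 cytosolic genes, the level was 592 ± 12.5 FPKM in labelled cKO estrus (SD, n = 3) and 985.1 ± 89.8 FPKM in labelled cKO diestrus (n = 4), and 593 ± 21.2 FPKM in WT estrus (n = 3) and 809.7 ± 108 FPKM in WT diestrus (n = 4). Summed over the 16 mitochondrial genes it was 127 ± 2.12 FPKM in labelled cKO estrus and 167 ± 7.85 FPKM in labelled cKO diestrus, and 128 ± 3.61 FPKM in WT estrus and 156 ± 9.85 FPKM in WT diestrus. Cytosolic mRNA thus stood several-fold above mitochondrial mRNA in each group. Libraries of 1 group agreed more closely at estrus, where the median coefficient of variation of a cytosolic gene was 3.6% in labelled cKO and 4.15% in WT. At diestrus it was 13.7% in labelled cKO and 14.5% in WT.

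Which gene stood highest depended on the stage. At estrus the glutaminyl enzyme Qars was highest, at 67.4 ± 1.35 FPKM in labelled cKO and 64.5 ± 3.13 FPKM in WT, apart from the lysyl enzyme Kars at 59.6 ± 1.43 FPKM in labelled cKO and 57.6 ± 2.12 FPKM in WT. At diestrus Kars was highest, at 92.6 ± 5.47 FPKM in labelled cKO and 80.3 ± 11.8 FPKM in WT, but its libraries overlapped those of the next gene in both genotypes (Gars in labelled cKO, the asparaginyl enzyme Nars in WT). The cysteinyl enzyme Cars was the lowest cytosolic gene in all 4 groups, at 9.19 ± 0.335 and 19.7 ± 2.75 FPKM in labelled cKO at estrus and diestrus, and 8.50 ± 0.312 and 13.4 ± 2.70 FPKM in WT at estrus and diestrus. Its libraries stood apart from those of the next lowest gene in each group. At diestrus the libraries of 18 of the 19 neighbouring pairs in this order overlapped in each genotype, against 10 of 19 at estrus. Among mitochondrial genes the isoleucyl enzyme Iars2 was highest in every group, between 25.1 ± 1.07 FPKM in labelled cKO estrus and 28.6 ± 1.11 FPKM in WT diestrus.

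**Figure D1:**
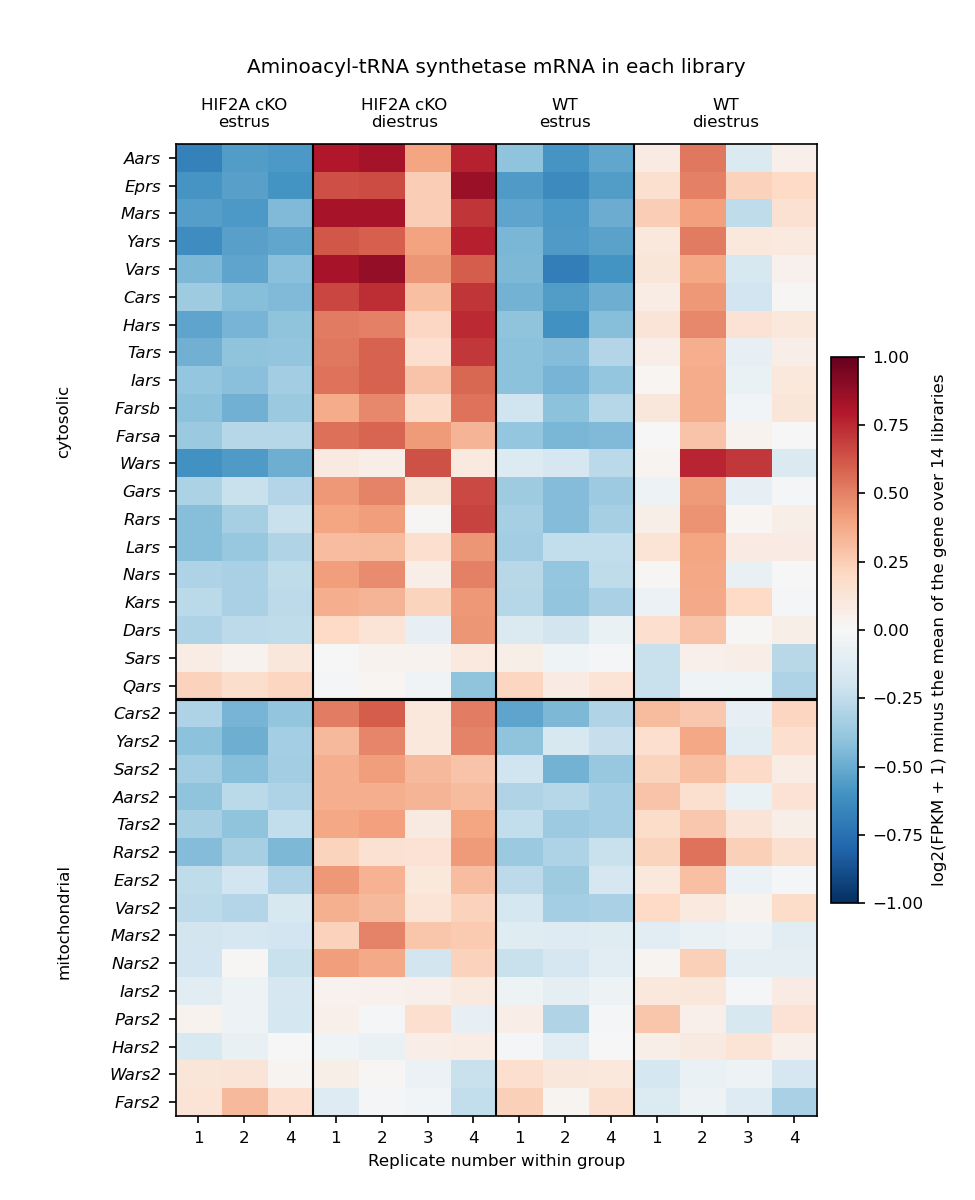
Levels of 35 synthetase genes (rows, cytosolic above mitochondrial) in the 14 libraries (columns, by group and replicate number), as log2(FPKM + 1) minus the mean of each gene over all libraries, red above and blue below that mean. Most cytosolic genes are blue in the 6 estrus libraries and red in the labelled cKO diestrus libraries, of which replicate 3 is paler, and among WT diestrus libraries replicate 2 is the reddest for most of them.

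Estrus was set against diestrus within WT mice to ask how the family follows the normal cycle. Most synthetase mRNAs were lower at estrus, and the fall was largest for the dual enzyme Eprs, the tyrosyl enzyme Yars and the histidyl enzyme Hars. With limma on log2(FPKM + 1), adjusted by Benjamini-Hochberg over 14278 genes at 0.05, 18 of 20 cytosolic genes fell, Qars rose and the seryl enzyme Sars did not pass. Of the 16 mitochondrial genes 10 fell and 2 rose. The median difference was -0.51 log2 for cytosolic and -0.38 log2 for mitochondrial genes, against -0.09 log2 for all genes. In whole tissue, less RNA per cell and fewer cells of a type cannot be told apart. The stage moved much of the transcriptome: 57.2% of all genes passed, 34.1% lower and 23.0% higher at estrus. Rescaling the libraries by the median of ratios made the split of all called genes 3972 higher to 3862 lower, against 3287 higher to 4874 lower as reported, and 15 cytosolic genes then fell.

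Eprs (chromosome 1, 185363044 to 185428360, plus strand, GENCODE M21 on GRCm38) joins glutamyl- and prolyl-tRNA synthetase in 1 chain. It read 25.2, 24.0 and 25.5 FPKM in WT estrus libraries, against 42.5, 54.2, 44.7 and 43.7 FPKM in WT diestrus libraries. Every estrus value lay below every diestrus value, and the difference was -0.86 log2 (SE 0.120, adjusted p = 7.86e-05). Yars read 18.2, 16.8 and 17.2 FPKM at estrus, against 27.4, 36.7, 27.4 and 27.2 FPKM at diestrus (-0.73 log2, SE 0.107). Diestrus replicate 2 was the highest library for Yars, and the stages did not overlap. Hars read 26.3, 22.7 and 25.8 FPKM at estrus, against 38.4, 49.1, 38.8 and 37.8 FPKM at diestrus (-0.69 log2, SE 0.119). Hars shares 195 exonic bases with Hars2 on the opposite strand, and the strandedness of the authors' values was not given in the sources used here. This also applies to each overlapping pair named hereafter.

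In all, the libraries of the stages did not overlap for 17 cytosolic and 13 mitochondrial genes lower at estrus, where 36.9% of all genes were apart in that direction, and for 1 and 2 genes higher, where 24.2% were. Gars and Kars, each of which serves both compartments from 1 gene, fell by 0.45 and 0.46 on the log2 scale. Gars averaged 44.4 ± 1.29 FPKM at estrus and 61.7 ± 11.2 FPKM at diestrus. Farsa and Farsb, the catalytic and the tRNA-binding subunit of the phenylalanyl enzyme, fell together, by 0.51 (SE 0.079) and 0.45 log2 (SE 0.10). The aspartyl enzyme Dars (-0.26 log2, adjusted p = 0.0426) and Wars (-0.53 log2, adjusted p = 0.0439) were close to the threshold, and they lost it in 13 and 18 of 26 other settings. Wars, the tryptophanyl enzyme, which interferon induces, read 34.1, 33.3 and 30.9 FPKM at estrus, against 38.2, 64.2, 61.9 and 33.8 FPKM at diestrus. The stages overlapped for Wars, and diestrus replicates 2 and 3 were both far above replicates 1 and 4.

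Against this direction, Qars (chromosome 9, 108507706 to 108515941, plus strand) rose at estrus. It read 67.9, 61.7 and 64.1 FPKM in WT estrus libraries, against 49.7, 56.4, 56.4 and 46.8 FPKM in WT diestrus libraries, without overlap (0.30 log2, SE 0.10, adjusted p = 0.0207). The call for Qars was lost without WT estrus replicate 1, WT estrus replicate 4 or WT diestrus replicate 4 (adjusted p from 0.0502 to 0.077). Sars averaged 33.9 ± 1.29 FPKM at estrus and 31.7 ± 4.02 FPKM at diestrus, and the 95% interval of its difference ran from -0.08 to 0.28 log2.

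Among the mitochondrial genes the cysteinyl enzyme Cars2 and the arginyl enzyme Rars2 fell most. Cars2 read 5.79, 6.17 and 6.96 FPKM at estrus, against 11.2, 10.8, 8.24 and 10.4 FPKM at diestrus (-0.61 log2, SE 0.123, adjusted p = 0.00113). Rars2 read 9.54, 10.01 and 10.7 FPKM at estrus, against 14.9, 18.9, 15.0 and 14.3 FPKM at diestrus (-0.59 log2, SE 0.096). Neither gene overlapped between the stages. The phenylalanyl enzyme Fars2 went the other way, at 20.8, 17.8 and 19.6 FPKM at estrus, against 15.7, 16.8, 15.8 and 13.7 FPKM at diestrus (0.30 log2, SE 0.084, adjusted p = 0.00836). The tryptophanyl enzyme Wars2 also rose (0.24 log2, SE 0.076, adjusted p = 0.0157, and 0.0552 without WT estrus replicate 1), while its cytosolic counterpart Wars was lower at estrus. Hars2, the methionyl enzyme Mars2, the asparaginyl enzyme Nars2 and the prolyl enzyme Pars2 did not pass, with differences between -0.18 and -0.04 log2. Exons of Cars2 overlap Naxd by 422 bases and exons of Fars2 overlap Nrn1 by 501 and Lyrm4 by 115 bases, each on the opposite strand.

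In labelled cKO mice the same comparison gave 18 of 20 cytosolic genes lower at estrus and Qars higher, and 12 of 16 mitochondrial genes lower and Fars2 higher. Among all genes 62.0% passed, 36.5% lower and 25.5% higher. The median difference was -0.80 log2 for cytosolic and -0.50 log2 for mitochondrial genes, against -0.08 log2 for all genes. The stages were apart for 18 cytosolic and 11 mitochondrial genes lower at estrus, where 37.0% of all genes were, and for 1 of each compartment higher, where 26.1% were. Aars read 20.8, 22.6 and 22.3 FPKM in labelled cKO estrus libraries, against 59.6, 60.8, 44.7 and 58.3 FPKM in labelled cKO diestrus libraries. It was the largest fall of the family (-1.30 log2, SE 0.140, adjusted p = 6.18e-06), and the diestrus libraries stood apart from the estrus ones even at their lowest, replicate 3. Exons of Aars overlap those of Exosc6 by 1326 bases on the same strand, so reads of that stretch cannot be told apart.

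Eprs read 24.9, 25.7 and 24.8 FPKM in labelled cKO estrus libraries, against 59.8, 60.2, 45.1 and 69.9 FPKM in labelled cKO diestrus libraries (-1.18 log2, SE 0.120). The methionyl enzyme Mars read 14.4, 14.1 and 15.6 FPKM at estrus, against 38.9, 38.9, 25.7 and 36.0 FPKM at diestrus (-1.18 log2, SE 0.155). In both genes the stages were apart and diestrus replicate 3 was the lowest of its group. Mars overlaps the stress gene Ddit3 by 68 exonic bases on the opposite strand, and Ddit3 itself was higher at estrus in this genotype (0.55 log2, adjusted p = 0.0101). Of the mitochondrial genes, Cars2 averaged 6.48 ± 0.411 FPKM at estrus and 12.4 ± 1.90 FPKM at diestrus (-0.83 log2, SE 0.123), and the tyrosyl enzyme Yars2 averaged 7.98 ± 0.467 FPKM at estrus and 14.4 ± 1.89 FPKM at diestrus (-0.77 log2, SE 0.119). Qars read 68.4, 65.8 and 67.9 FPKM at estrus, against 57.7, 59.1, 56.8 and 43.9 FPKM at diestrus (0.31 log2, SE 0.10, adjusted p = 0.015). The stages were apart for Qars, replicate 4 was far below its group, and the call was lost without the 2 libraries of highest Rn45s (0.21 log2, adjusted p = 0.0666). Fars2 averaged 20.4 ± 1.47 FPKM at estrus and 16.2 ± 1.26 FPKM at diestrus (0.31 log2, SE 0.084, adjusted p = 0.0062).

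**Figure D2:**
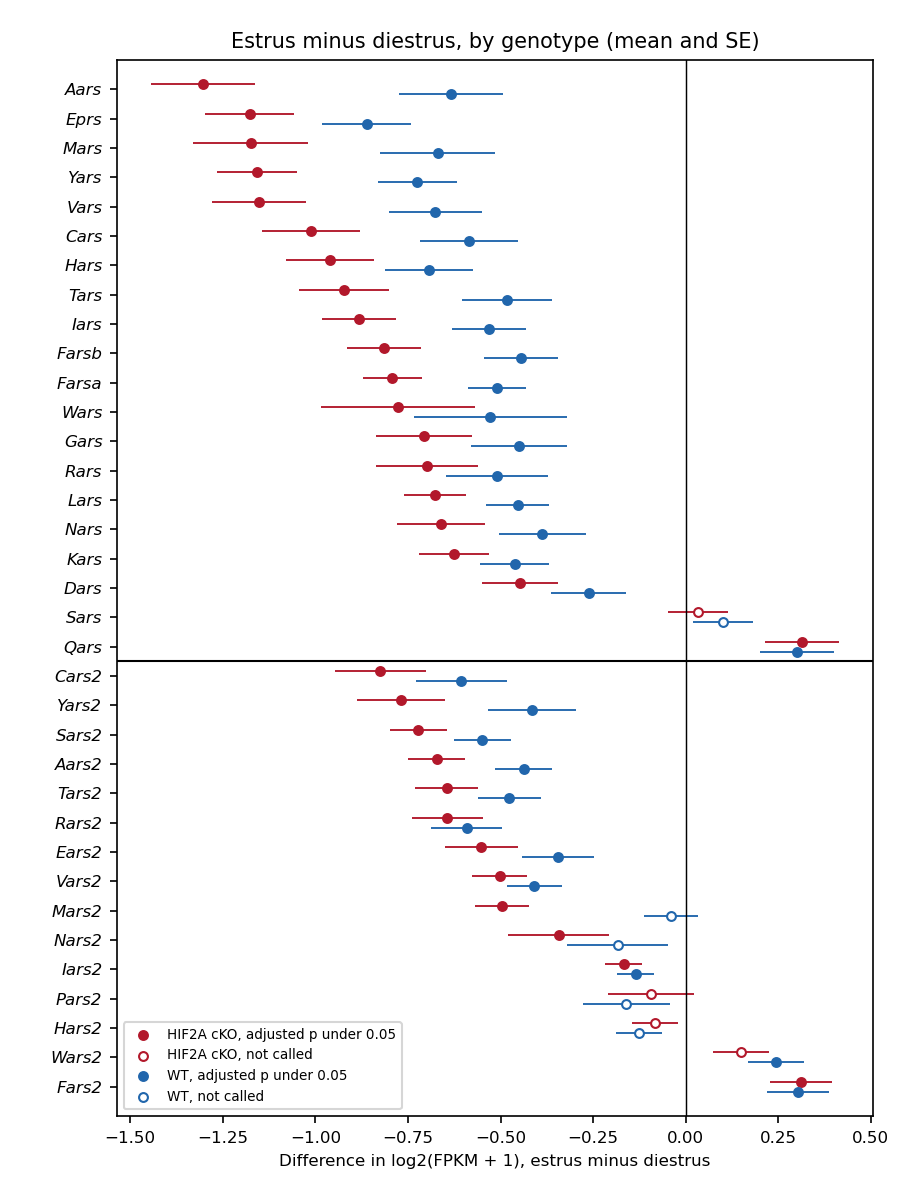
Difference in log2(FPKM + 1), estrus minus diestrus, for each gene in labelled cKO (red) and WT (blue) mice, with the standard error of the fit as a bar and filled points for genes past the threshold. In both genotypes Qars and Fars2 lie right of 0 and most other genes left of it, and the red points lie further left for 19 of 20 cytosolic genes.

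The cycle changes of the genes were ordered alike in the genotypes, which share no library. Over the 20 cytosolic genes the changes in labelled cKO and WT had a Pearson r of 0.961, and over the 16 mitochondrial genes 0.901. These describe genes, which are not independent, and carry no test. The change in labelled cKO was lower than that in WT for 19 of 20 cytosolic genes, all but Qars, and for 12 of 16 mitochondrial genes. Each mitochondrial gene was paired with its cytosolic counterpart, which was Eprs for both Pars2 and the glutamyl enzyme Ears2, and Farsa for Fars2. Both changes had the same sign in 13 of 16 pairs in each genotype. Whatever the sign, the cytosolic gene had the larger absolute cycle change in 15 of 16 pairs in labelled cKO and in 12 of 16 pairs in WT. The pseudocount of 1 shrinks the lower mitochondrial values more. With 0.1 the counts were 15 in labelled cKO and 11 in WT, as well as 15 between the genotypes at diestrus, and the mitochondrial median was -0.59 log2 in labelled cKO and -0.42 log2 in WT. The enzymes also split into class I and class II by the fold of their catalytic domain. In WT 14 of 17 class I genes and 13 of 18 class II genes fell, and in labelled cKO 15 of 17 and 14 of 18 fell (Eprs holds a domain of each class and is in neither count). Among all genes 34.1% fell in WT and 36.5% in labelled cKO.

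The comparison of genotypes at diestrus asked whether the family differed where HIF2A was targeted. Of the 20 cytosolic genes 10 were higher in labelled cKO and 0 lower, and 19 had a positive difference. Of the 16 mitochondrial genes 2 were higher, Mars2 and the alanyl enzyme Aars2, and 0 lower. Among all genes 23.9% passed, 13.8% higher and the rest lower. The median difference was 0.31 log2 for cytosolic and 0.14 log2 for mitochondrial genes, against 0.02 log2 for all genes. The 10 genes were Aars, Cars, Farsa, Iars, Mars, Tars, Vars, Yars, Eprs and Gars.

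The valyl enzyme Vars (chromosome 17, 35000987 to 35016322, plus strand) showed the largest difference. It read 43.8, 45.6, 33.3 and 37.5 FPKM in labelled cKO diestrus libraries, against 26.6, 32.1, 21.7 and 25.1 FPKM in WT diestrus libraries. The groups did not overlap, by a narrow margin between labelled cKO replicate 3 and WT replicate 2 (0.59 log2, SE 0.117, adjusted p = 0.00661). Aars read 59.6, 60.8, 44.7 and 58.3 FPKM in labelled cKO diestrus libraries, against 35.7, 49.0, 30.5 and 35.01 FPKM in WT diestrus libraries (0.57 log2, SE 0.129, adjusted p = 0.0102). Cars read 20.5, 21.5, 15.6 and 21.2 FPKM in labelled cKO diestrus libraries, against 13.2, 17.2, 10.8 and 12.6 FPKM in WT diestrus libraries (0.53 log2, SE 0.122, adjusted p = 0.0115). For Aars and Cars the groups overlapped at the same 2 libraries, labelled cKO replicate 3 and WT replicate 2. Farsa, whose groups were apart, read 34.5 to 41.0 FPKM in labelled cKO diestrus libraries, against 27.0 to 33.1 FPKM in WT diestrus libraries (0.40 log2, SE 0.073, adjusted p = 0.00521). Its partner subunit Farsb averaged 38.9 ± 4.16 FPKM in labelled cKO and 32.6 ± 3.98 FPKM in WT and did not pass (0.25 log2, 95% interval 0.05 to 0.45, adjusted p = 0.0679), though it did with the replicate block over all libraries (adjusted p = 0.0317).

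Mars2 (chromosome 1, 55237177 to 55248470, plus strand) shares no exonic bases with another gene. It read 3.67, 4.63, 3.83 and 3.77 FPKM in labelled cKO diestrus libraries, against 2.68, 2.82, 2.85 and 2.69 FPKM in WT diestrus libraries. All labelled cKO values were above all WT values, and the difference was 0.40 log2 (SE 0.067, adjusted p = 0.00393). Mars2 held its call in 27 of 27 other settings in which it was tested. Aars2 read 7.43, 7.40, 7.29 and 7.15 FPKM in labelled cKO diestrus libraries, against 6.97, 6.32, 5.24 and 6.22 FPKM in WT diestrus libraries (0.22 log2, SE 0.071, adjusted p = 0.0453). Its groups were apart too, but the call was lost in 20 of 28 settings. Vars, Farsa, Mars2 and Aars2 were the 4 genes of the family without overlap, where 8.80% of all genes were apart and higher. Mars2 thus went with Mars and Aars2 with Aars, and in 15 of 16 pairs the cytosolic gene had the larger absolute difference.

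The 5 genes with the C/EBP-ATF element in the windows shown above (Aars, Gars, Iars, Tars and Yars) were all among the 10 higher genes, with a median of 0.39 log2. Of the 8 matched cytosolic genes without it 3 were higher (Farsa, Mars and Eprs), with a median of 0.23 log2. Among all genes 13.8% were higher. Vars and Cars, also among the 10, had no window, and Aars, Iars and Tars hold the E-box and hypoxia core as well, so the split by the C/EBP-ATF element is also in part a split by these. Yars and Gars lost their calls with the block within the stage (adjusted p = 0.0603 and 0.0783). Tars read 54.0, 56.6, 42.1 and 61.4 FPKM in labelled cKO diestrus libraries, against 39.1, 48.3, 35.2 and 39.2 FPKM in WT diestrus libraries (0.39 log2, SE 0.112, adjusted p = 0.0258). The call for Tars was lost in 8 settings: without WT diestrus replicate 1, 3 or 4, without labelled cKO diestrus replicate 1, 2 or 4, without the 2 libraries of highest Rn45s, and with the diestrus libraries alone (adjusted p 0.0537 to 0.104). Gars averaged 79.3 ± 12.0 FPKM in labelled cKO and 61.7 ± 11.2 FPKM in WT, and Eprs 58.8 ± 10.2 FPKM in labelled cKO and 46.3 ± 5.35 FPKM in WT. Gars (0.36 log2, adjusted p = 0.0466) and Eprs (0.33 log2, adjusted p = 0.0492) were the calls nearest the threshold, and each was lost in 19 of 28 settings. Wars went against the family, at 40.1, 39.2, 59.0 and 40.3 FPKM in labelled cKO diestrus libraries, against 38.2, 64.2, 61.9 and 33.8 FPKM in WT diestrus libraries. The groups overlapped for Wars and the difference of -0.11 log2 did not pass (95% interval -0.53 to 0.30). Its replicate 3 was high in both genotypes.

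With the 8 diestrus libraries fitted alone, 0 cytosolic genes and Mars2 alone of the mitochondrial genes passed (adjusted p of the 10 cytosolic genes 0.051 to 0.151), and with the replicate number as a block in that fit 7 cytosolic and 1 mitochondrial genes passed, with a block over all 14 libraries 12 and 4. Leaving out WT diestrus replicate 3 or labelled cKO diestrus replicate 1 or 2 lowered the cytosolic count to 6, and so did leaving out the 2 libraries of highest Rn45s, among them labelled cKO diestrus replicate 4. The mitochondrial count was 5 without labelled cKO diestrus replicate 3. It was 1 without any other single labelled cKO diestrus library, without WT diestrus replicate 3 or 4, without any single estrus library and without the 2 libraries of highest Rn45s.

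**Figure D3:**
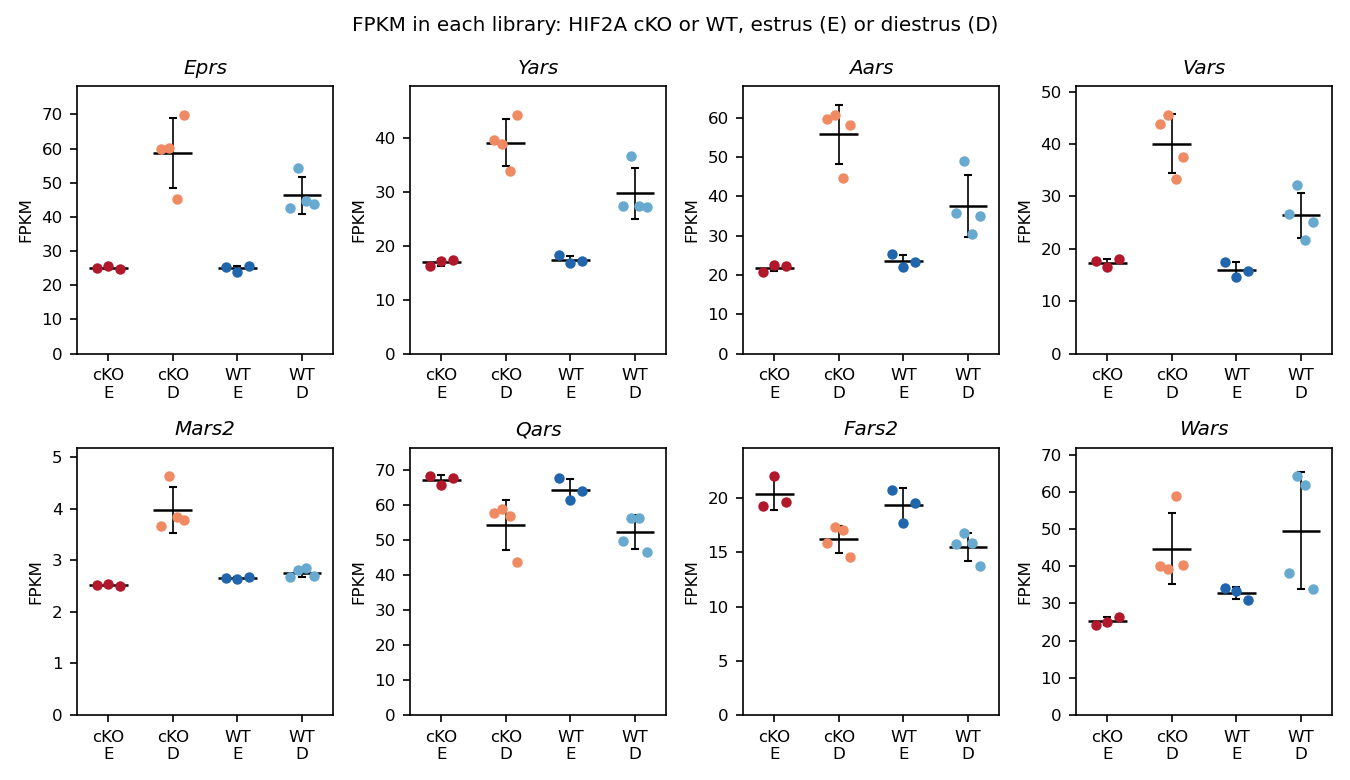
FPKM of 8 synthetase genes in every library, by group (cKO stands for labelled cKO, E for estrus, D for diestrus), with the group mean as a horizontal line and the SD as a bar. Estrus libraries are tightly grouped in both genotypes, Mars2 is raised in the labelled cKO diestrus libraries without overlap, and Qars and Fars2 are higher at estrus.

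**Figure D4:**
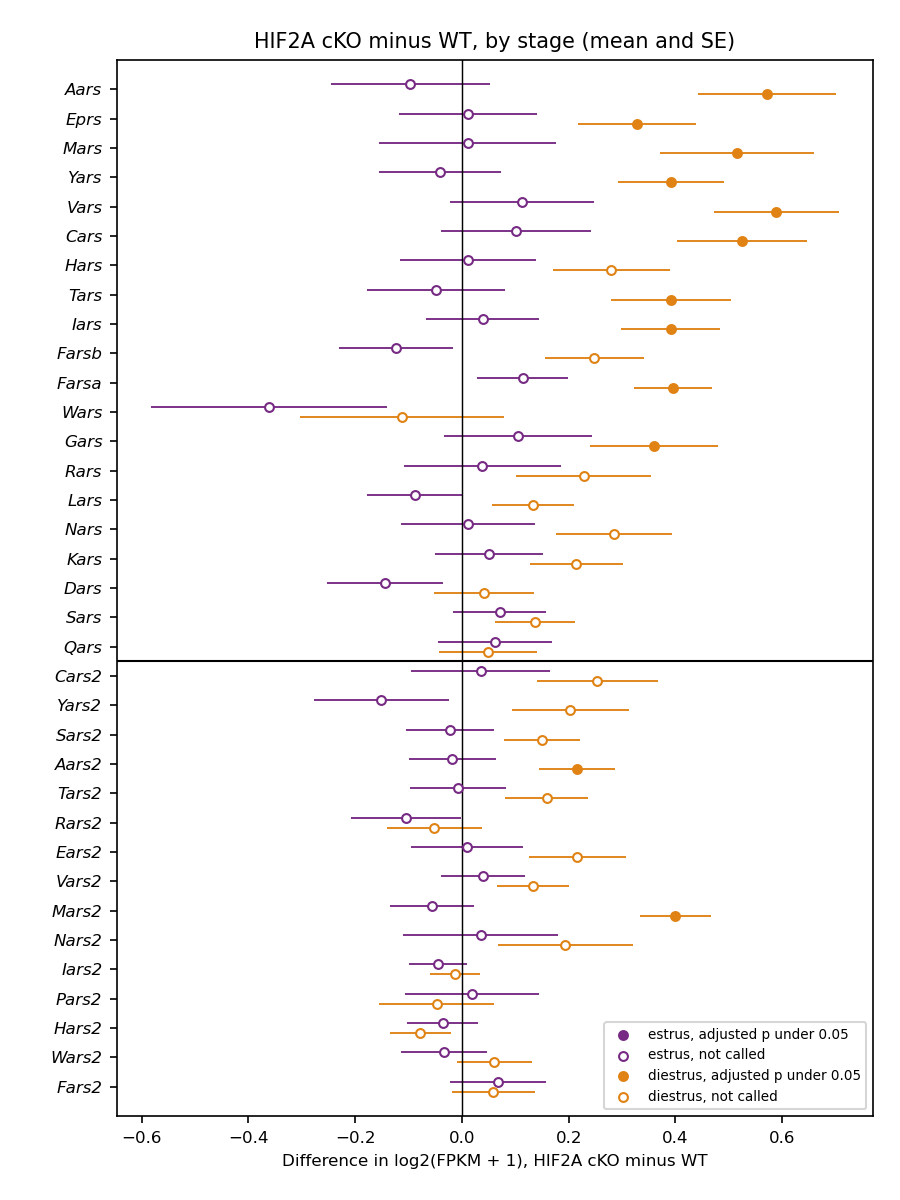
Difference in log2(FPKM + 1), labelled cKO minus WT, for each gene at estrus (purple) and diestrus (orange), with the standard error of the fit as a bar and filled points for genes past the threshold. No gene passes at estrus, and 10 cytosolic and 2 mitochondrial genes pass at diestrus, all to the right of 0.

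The comparison of genotypes at estrus gave 0 calls among the 36 genes in limma, and 0 had an unadjusted p under 0.05. Among all genes 0.105% passed, 0.0700% higher and 0.0350% lower. The median difference was 0.01 log2 for cytosolic and -0.01 log2 for mitochondrial genes, against 0.01 log2 for all genes. Eprs averaged 25.1 ± 0.494 FPKM in labelled cKO and 24.9 ± 0.803 FPKM in WT, and Aars 21.9 ± 0.974 FPKM in labelled cKO and 23.5 ± 1.59 FPKM in WT. Wars read 24.3, 25.1 and 26.5 FPKM in labelled cKO estrus libraries, against 34.1, 33.3 and 30.9 FPKM in WT estrus libraries. The groups were apart, the difference was -0.36 log2 (SE 0.221, adjusted p = 0.82), and it passed when the 6 estrus libraries were fitted alone (adjusted p = 0.0218). Where groups are small, libraries that do not overlap are common: 14.4% of all genes were apart and higher and 12.0% apart and lower.

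The test of the difference between the cycle changes (the change in labelled cKO minus the change in WT) gave 0 calls in the family, where 0.0350% of all genes passed, 0.0140% with a positive and 0.0210% with a negative difference. At an unadjusted p under 0.05 there were 9 cytosolic genes and Mars2, each with a lower change in labelled cKO. Aars had the most negative value (-0.67 log2, SE 0.198, 95% interval -1.10 to -0.24, adjusted p = 0.15), and Mars2 had the smallest p (-0.46 log2, SE 0.103, adjusted p = 0.106). Mars2 averaged 2.52 ± 0.0235 FPKM at estrus and 3.97 ± 0.441 FPKM at diestrus in labelled cKO, and 2.66 ± 0.0137 FPKM at estrus and 2.76 ± 0.088 FPKM at diestrus in WT. The median was -0.28 log2 for cytosolic and -0.13 log2 for mitochondrial genes. With the replicate number as a block over all 14 libraries, 2 cytosolic genes, Aars (adjusted p = 0.0382) and Mars (adjusted p = 0.0355), and Mars2 (adjusted p = 0.0455) passed in limma. That block also joins estrus and diestrus libraries of the same number, which did not deviate together. Leaving out labelled cKO diestrus replicate 3 gave 4 cytosolic and 1 mitochondrial calls, and leaving out WT diestrus replicate 2 gave 2 cytosolic calls.

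Of the 8 genes of the multi-synthetase complex (Dars, Eprs, Iars, Kars, Lars, Mars, Qars and Rars), 7 fell at estrus in each genotype and Qars rose. Among all genes 36.5% fell in labelled cKO and 34.1% in WT. At diestrus 3 of the 8 were higher in labelled cKO (Eprs, Iars and Mars) and 0 lower, with a median of 0.22 log2. The share of all genes higher was 13.8%. Higher too were 7 of the 12 cytosolic genes outside the complex, with a median of 0.38 log2. Of its 3 scaffold genes, Eef1e1 fell by 1.16 log2 at estrus in labelled cKO (SE 0.163) and by 1.08 log2 in WT (SE 0.163). Aimp2 also fell at estrus in both, and it was the only scaffold gene higher in labelled cKO at diestrus (0.47 log2, SE 0.093, adjusted p = 0.00661). Aimp2 read 42.8, 46.5, 35.2 and 40.2 FPKM in labelled cKO diestrus libraries, against 27.9, 35.2, 26.9 and 28.0 FPKM in WT diestrus libraries. Labelled cKO replicate 3 and WT replicate 2 again lay next to each other. Aimp1, the remaining scaffold gene, passed in none of these 3 comparisons.

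Other genes of aminoacyl-tRNA handling moved less evenly. Of 14 cytosolic ones, 9 fell and 1 rose at estrus in labelled cKO, and 8 fell in WT. The falls were above the background, where 36.5% of all genes fell and 25.5% rose in labelled cKO, and 34.1% fell in WT. At diestrus 2 of the 14 were higher and 2 lower in labelled cKO, close to the background, where 13.8% of all genes were higher. Xpot, the nuclear exporter of tRNA, averaged 23.7 ± 2.67 FPKM in labelled cKO diestrus and 17.5 ± 1.93 FPKM in WT diestrus (0.41 log2, SE 0.087, adjusted p = 0.00785). Pstk, a kinase in the making of selenocysteinyl-tRNA, was lower, at 12.1 ± 1.69 FPKM in labelled cKO diestrus and 15.5 ± 0.68 FPKM in WT diestrus (-0.33 log2, SE 0.079, adjusted p = 0.012). Dtd1, an editing deacylase, rose at estrus in labelled cKO (0.59 log2, SE 0.135). Of 9 measured genes of mitochondrial tRNA handling, 6 fell at estrus in labelled cKO and 4 in WT, and 2 were higher in labelled cKO at diestrus. The shares of all genes for these 3 counts were 36.5%, 34.1% and 13.8%. Gatc, a subunit of the amidotransferase that makes mitochondrial glutaminyl-tRNA, fell by 0.44 log2 in labelled cKO and 0.41 log2 in WT at estrus. The tRNA-modifying enzymes Gtpbp3 (0.30 log2) and Mto1 (0.23 log2) were the 2 genes higher in labelled cKO at diestrus. Mto1 had the largest fall at estrus in labelled cKO of these genes (-0.52 log2).

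Of 5 tested cytosolic elongation factors, 3 fell at estrus in each genotype, and Eef2, the translocase, rose in labelled cKO (0.76 log2, SE 0.183). Eif5a, which helps the ribosome past difficult peptide bonds, was the only one higher in labelled cKO at diestrus, where 13.8% of all genes were. It averaged 604.7 ± 92.8 FPKM in labelled cKO diestrus and 418 ± 86.6 FPKM in WT diestrus (0.54 log2, SE 0.140, adjusted p = 0.0176). Of 9 mitochondrial translation factors, 4 fell at estrus in each genotype, near the background of 36.5% of all genes lower in labelled cKO and 34.1% in WT, and the initiation factor Mtif3 rose in labelled cKO. At diestrus 2 of the 9 were higher in labelled cKO, near the same share of all genes. The larger rise was in Tsfm, the mitochondrial exchange factor, at 25.2 ± 1.98 FPKM in labelled cKO and 18.4 ± 2.24 FPKM in WT (0.44 log2, SE 0.084, adjusted p = 0.00591).

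Of 30 targets of the amino acid response known from work on ATF4, 15 fell and 7 rose at estrus in labelled cKO, and 11 fell and 9 rose in WT. The background was 36.5% of all genes lower and 25.5% higher in labelled cKO, and 34.1% lower and 23.0% higher in WT, close to the counts in WT. Mthfd2, a mitochondrial folate enzyme, fell most, to 1.37 ± 0.295 FPKM at estrus against 19.5 ± 3.37 FPKM at diestrus in labelled cKO, and to 1.80 ± 0.334 FPKM at estrus against 13.6 ± 6.64 FPKM at diestrus in WT. Nupr1, a stress-induced chromatin protein, rose at estrus by 1.54 log2 in labelled cKO (SE 0.288), and Cebpb, a transcription factor of the C/EBP family, by 1.88 log2 in WT (SE 0.225). The targets that fell included the asparagine synthetase gene Asns and the serine synthesis genes Phgdh, Psat1 and Psph, and those that rose included the stress genes Ddit3, Ddit4 and Atf3. These 7 genes were named after their values were seen, and so was Atf4.

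At diestrus 8 of the 30 targets were higher in labelled cKO and 1 was lower, with a median of 0.33 log2. The background was 23.9% of all genes past the threshold, 13.8% higher and the rest lower. Cebpb read 32.8, 51.9, 32.2 and 22.5 FPKM in labelled cKO diestrus libraries, against 8.48, 13.1, 11.6 and 9.37 FPKM in WT diestrus libraries. It was the largest difference of the list, with the groups well apart (1.58 log2, SE 0.208, adjusted p = 0.00222). Cth, which makes cysteine from cystathionine, was lower, at 2.12 ± 0.34 FPKM in labelled cKO and 4.00 ± 1.42 FPKM in WT (-0.65 log2, SE 0.158, adjusted p = 0.0135). Asns, a widely used ATF4 target, read 19.0, 20.5, 19.4 and 22.0 FPKM in labelled cKO diestrus libraries, against 13.1, 24.0, 21.3 and 13.6 FPKM in WT diestrus libraries. These overlapped and did not pass (0.20 log2, 95% interval -0.15 to 0.55).

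Of 9 regulators of this response, 7 fell and 1 rose at estrus in labelled cKO, and 3 fell and 1 rose in WT. The count of falls in WT was near the share of all genes, of which 34.1% fell and 23.0% rose. In labelled cKO 36.5% of all genes fell and 25.5% rose. Eif2s1, the subunit of eIF2 that stress kinases phosphorylate, had the largest fall (-0.99 log2 in labelled cKO and -0.83 log2 in WT), and the phosphatase subunit Ppp1r15a rose in both (0.39 log2 in labelled cKO and 0.53 log2 in WT). At diestrus 3 of the 9 were higher in labelled cKO, where 13.8% of all genes were. Eif2ak3, the kinase of endoplasmic reticulum stress, read 14.8, 16.1, 10.3 and 11.4 FPKM in labelled cKO diestrus libraries, against 7.70, 9.46, 8.37 and 8.31 FPKM in WT diestrus libraries (0.56 log2, SE 0.113, adjusted p = 0.00686). Atf4 itself averaged 135 ± 15.5 FPKM in labelled cKO diestrus and 99.3 ± 17.4 FPKM in WT diestrus (0.45 log2, SE 0.113, adjusted p = 0.015). Its mRNA is no measure of ATF4 protein, which is controlled in translation. The groups were apart for Eif2ak3 and overlapped for Atf4.

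**Figure D5:**
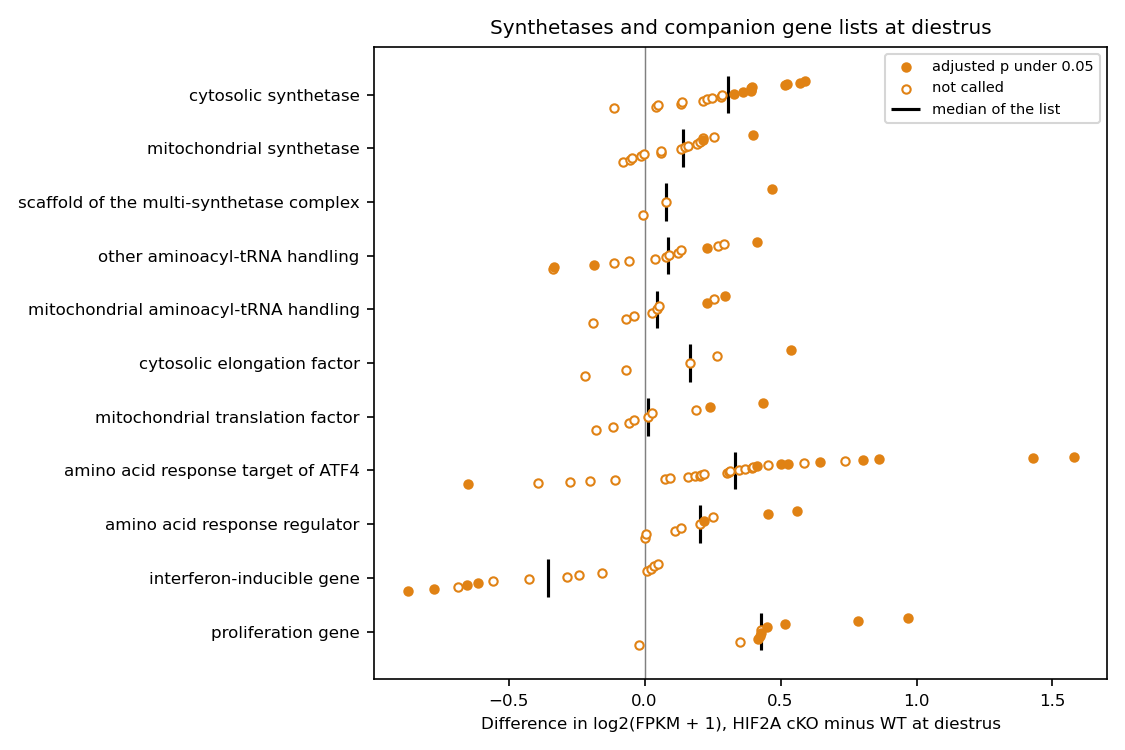
Difference in log2(FPKM + 1), labelled cKO minus WT at diestrus, for the synthetases and 9 companion gene lists, 1 point per gene, filled where past the threshold, with the median of each list as a bar. The median is 0.31 for cytosolic and 0.14 for mitochondrial synthetases, 0.33 for ATF4 targets, 0.43 for proliferation genes and -0.36 for interferon-inducible genes.

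Wars is interferon-inducible. Of 14 tested interferon-inducible genes 10 rose at estrus in labelled cKO and 6 in WT, and 0 fell, while Wars fell in both. The shares of all genes were 25.5% higher and 36.5% lower in labelled cKO, and 23.0% higher and 34.1% lower in WT. Irf7, an interferon regulatory factor, averaged 33.9 ± 11.4 FPKM at estrus and 3.84 ± 0.75 FPKM at diestrus in labelled cKO, and 21.6 ± 3.64 FPKM at estrus and 4.92 ± 0.987 FPKM at diestrus in WT. At diestrus 4 of the 14 were lower in labelled cKO, among them Ifit1, an RNA-binding antiviral protein, at 0.834 ± 0.18 FPKM in labelled cKO and 2.41 ± 0.755 FPKM in WT (-0.87 log2, adjusted p = 0.0361). None of the 14 was higher. In this comparison of genotypes 23.9% of all genes passed, 13.8% higher and the rest lower. Single diestrus libraries gave another picture. In the replicates numbered 3, where Wars read 59.0 FPKM in labelled cKO and 61.9 FPKM in WT, Gbp2, an interferon-induced GTPase, read 30.3 FPKM in labelled cKO and 35.8 FPKM in WT, the highest of each group. The same replicates had the highest summed T and NK cell markers, at 32.2 FPKM in labelled cKO (6.45 to 7.53 FPKM in the other 3) and 49.3 FPKM in WT (9.87 to 11.6 FPKM in the other 3). WT replicate 2, where Wars read 64.2 FPKM, had 24.9 FPKM of Gbp2 and 11.6 FPKM of these markers. Gbp2 was named after its values were seen, and the part of these cells in the level of Wars was not tested.

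Proliferation genes and cell type markers moved with the same comparisons. All 10 proliferation genes fell at estrus in each genotype, with a median of -3.16 log2 in labelled cKO and -2.58 log2 in WT, and 7 were higher in labelled cKO at diestrus, with a median of 0.43 log2. Among all genes 36.5% fell at estrus in labelled cKO and 34.1% in WT, and 13.8% were higher in labelled cKO at diestrus. The DNA topoisomerase Top2a averaged 48.5 ± 9.53 FPKM in labelled cKO diestrus and 34.9 ± 3.86 FPKM in WT diestrus, and the mitotic kinase Plk1 20.5 ± 4.08 FPKM in labelled cKO diestrus and 9.86 ± 1.02 FPKM in WT diestrus. Summed over 10 of 10 epithelial markers, the level was 1297 to 1436 FPKM in labelled cKO estrus and 431.1 to 957 FPKM in labelled cKO diestrus, and 1026 to 1244 FPKM in WT estrus and 359 to 614.9 FPKM in WT diestrus. Over 6 of 7 macrophage markers it was 515.4 to 628.6 FPKM in labelled cKO estrus and 219.6 to 246.4 FPKM in labelled cKO diestrus, and 491.4 to 551.3 FPKM in WT estrus and 237.8 to 385.1 FPKM in WT diestrus. Both were higher at estrus without overlap, the opposite of most synthetases. Lower at estrus without overlap was the sum of 5 endothelial markers. In labelled cKO it was 99.9 to 115.2 FPKM at estrus and 117.8 to 176.1 FPKM at diestrus. In WT it was 94.2 to 111.2 FPKM at estrus and 112 to 214.6 FPKM at diestrus. The stromal sum was lower at estrus without overlap in WT only, and the smooth muscle sum overlapped in both genotypes. Single markers of both moved either way, with Dcn and Tagln higher and Vcan and Cnn1 lower at estrus. Between the genotypes at diestrus the ranges of the epithelial, macrophage, stromal and smooth muscle sums overlapped, but most same-numbered pairs differed in the same direction. The epithelial sum was higher in labelled cKO in 4 of 4 pairs, at 889.2, 957, 431.1 and 747.6 FPKM in labelled cKO replicates 1 to 4, against 614.9, 536.1, 359 and 471.9 FPKM in WT replicates 1 to 4. The macrophage sum was lower in labelled cKO in 4 of 4 pairs, at 225.9, 219.6, 224.4 and 246.4 FPKM in labelled cKO, against 385.1, 237.8, 256.8 and 370 FPKM in WT. The sum of 8 stromal markers was also lower in 4 of 4 pairs (1777 to 2688 FPKM in labelled cKO and 1910 to 2835 FPKM in WT). The sum of 7 smooth muscle markers was higher in 3 of 4 pairs (4016 to 6220 FPKM in labelled cKO and 3939 to 4930 FPKM in WT). Sums follow their most abundant genes, and some markers went against them by diestrus mean. In smooth muscle these were Myh11 (376 FPKM in labelled cKO, 451.5 FPKM in WT) and Smtn (175.2 and 183.6 FPKM). In stroma it was Vcan alone (22.6 FPKM in labelled cKO, 16.3 FPKM in WT), and in epithelium Cldn4 alone (10.6 and 13.1 FPKM). The part of proliferation and of cell makeup in the synthetase differences was not tested. The sum of 4 neutrophil markers was 1.72 to 2.68 FPKM in labelled cKO diestrus and 2.71 to 10.3 FPKM in WT diestrus, without overlap, with Cxcr2 under 0.5 FPKM in all libraries. Cpa1 and Prss2, markers of pancreas, a tissue rich in synthetases, were under 0.5 FPKM in all libraries.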

How the data were processed

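RNA sequencing libraries of whole mouse uteri (14 in all) were used. Per the labels' protocols, total RNA was purified with RNeasy columns and on-column DNase and made into libraries with an Illumina TruSeq RNA kit. The authors deposited FPKM values for 31274 symbols with 3 decimals. The submitters' processing notes name TopHat2 2.0.4, Cufflinks 2.0.2 and mm10. Their options, the annotation and the strand setting were not given in the sources used here.

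From these values, log2(FPKM + 1) was fitted with limma 3.58.1 in R 4.3.3, all 14 libraries in 1 fit of 4 group means, with an intensity trend. Fold changes on this scale understate the change of low genes. Genes needed at least 1 FPKM in at least 3 libraries. The 7 genes that passed this filter but were listed at 0 in a whole group and averaged at least 50 FPKM in another were left out. This left 14278 genes, and p-values were adjusted by Benjamini-Hochberg over all of them at 0.05. The absolute depth is unknown, so no counting interval is given. The script was tested on simulated data.

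Same-numbered labelled cKO and WT libraries deviated together at diestrus (correlations of residuals 0.321, 0.115, 0.622 and 0.217 for numbers 1 to 4) and not at estrus (0.080, 0.096 and -0.047 for numbers 1, 2 and 4). Labelled cKO diestrus replicate 2 correlated best with WT diestrus replicate 1 and not with its own number. The numbers were still taken to pair the diestrus libraries, from the data alone. The main test has no block, and the blocked counts stand beside the diestrus result. A block over all 14 libraries also joins estrus and diestrus libraries of the same number. Those did not deviate together (correlations of residuals -0.135 to -0.064 in WT and -0.001 to 0.018 in labelled cKO). Calls made with that block rest on this link too.

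Members and gene lists were chosen with earlier results of these data known. Named were, per comparison, the 3 cytosolic and 2 mitochondrial genes with the largest rise and fall past the threshold. Gars, Kars, Eprs, Wars, Farsa and Farsb were always named, and per companion list the largest rise and fall past the threshold. The values of 1 mitochondrial gene are not reported here singly, and it is not drawn gene by gene. Other pseudocounts, filters, scalings, sample choices, a replicate block, library weights and each library left out in turn were tried.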

Additional observations from a re-analysis of the deposited data

Results flagged for a closer look

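In 14 of 72 sets of 4 diestrus libraries (36 genes in 2 genotypes), 1 library stood apart from the other 3 by Dixon's criterion, which chance meets in about 1 of 20 sets. Sets of 3 estrus libraries were not examined. In labelled cKO diestrus, replicate 3 was low for Aars (44.7 FPKM, others 58.3 to 60.8 FPKM), Iars (33.2 FPKM, others 39.9 to 41.2 FPKM) and the threonyl mitochondrial gene Tars2 (13.8 FPKM, others 17.2 to 17.4 FPKM), and high for Wars (59.0 FPKM, others 39.2 to 40.3 FPKM). Replicate 2 was high for Mars2 (4.63 FPKM, others 3.67 to 3.83 FPKM), and replicate 4 was low for Qars (43.9 FPKM, others 56.8 to 59.1 FPKM).

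The other 8 values all came from WT diestrus replicate 2, which was high each time. It read 33.1 FPKM for Farsa (others 27.0 to 27.7 FPKM), 78.5 FPKM for Gars (others 54.9 to 57.6 FPKM) and 49.1 FPKM for Hars (others 37.8 to 38.8 FPKM). It read 33.7 FPKM for the leucyl gene Lars (others 27.0 to 28.1 FPKM), 77.9 FPKM for Nars (others 56.2 to 59.9 FPKM) and 58.1 FPKM for the arginyl gene Rars (others 42.9 to 44.1 FPKM). It read 18.9 FPKM for Rars2 (others 14.3 to 15.0 FPKM) and 36.7 FPKM for Yars (others 27.2 to 27.4 FPKM). These genes share libraries and are not independent. The values without WT diestrus replicate 2 or labelled cKO diestrus replicate 3 stand with the processing alternatives.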

How the results depend on the processing

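Leaving out each library in turn gave 16 to 19 cytosolic and 9 to 12 mitochondrial calls in WT, and 19 cytosolic and 11 to 13 mitochondrial calls in labelled cKO. The genotype comparison at diestrus depended on the processing. Against 10 cytosolic calls as reported, the diestrus libraries fitted alone gave 0, library weights 18, leaving out the 2 libraries of highest Rn45s 6, the diestrus libraries alone without those numbered 3 (chosen after seeing the data) 6, and leaving out each library in turn 6 to 15. The mitochondrial count of 2 became 0 with a filter of 5 FPKM (which removes Mars2), 1 with no filter, 1 with the diestrus libraries alone, 10 with library weights, 1 without the highest Rn45s libraries, 4 without the libraries numbered 3, 1 for the diestrus libraries alone without those numbered 3, and 1 to 5 leaving out each library. With the replicate block, cytosolic and mitochondrial counts at diestrus were 12 and 4 over all libraries and 7 and 1 within the stage, and the interaction gave 2 and 1. Over all genes, calls at diestrus ran from 430 with the libraries alone to 7885 with library weights, against 3410.

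At estrus the libraries alone gave 1 cytosolic call, against 0. The interaction, with 0 calls, gave 16 cytosolic and 5 mitochondrial calls with library weights, 3 and 1 without the diestrus libraries numbered 3, and 0 to 4 and 0 to 1 leaving out each library. Reversed in sign, and without a call either way, were Wars at diestrus (0.042 log2 with library weights and -0.273 to 0.029 log2 leaving out each library) and Eprs at estrus (-0.010 log2 with quantile normalization and -0.014 to 0.028 log2 leaving out each library). The cause was not tested. Depth is unknown, and with 3 or 4 libraries a group, differences near 0.3 log2 lay close to the threshold at diestrus.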
